A study of Rattus norvegicus with 2 samples.

Results

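Penk, Map2, Bdnf, Sncg, Uchl1, Gap43, Mapt and Nefl are genes best known from neurons, and their signals were examined in AT6.1, an established line of prostate cancer cells from the rat. The genes are those whose symbol stands alone on at least 1 probe set of the array annotation, which gave 14 probe sets for the 8 genes, of 20826 probe sets and 14217 genes with 1 symbol. They were chosen by their signals and ratios in these same arrays, so their counts and ratios describe the arrays and support nothing further. The series holds 2 Affymetrix arrays of total RNA, with no replicates. The array labelled Ndrg-1 came from clone number 7, which had received the plasmid pcDNA3 with the N-myc downstream regulated gene-1 as insert (Ndrg-1; symbol Ndrg1). The array labelled vector control came from clone number 9 of the same line, which had received pcDNA3 alone, and these are called the Ndrg-1 clone and the vector clone. Both clones were cultured with 10% fetal calf serum (RPMI medium) and 0.3 mg/mL of G418, the drug that keeps transfected cells under selection. Each group is 1 clone, 1 culture and 1 array, so the effects of clone, culture, array and insert cannot be told apart. No p-value is given for any comparison.

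Neurons signal through peptides and trophic factors and hold their long processes open with microtubules and neurofilaments. Penk encodes proenkephalin, the precursor from which proteases release the opioid enkephalin peptides, and Bdnf encodes brain-derived neurotrophic factor, which acts on the receptor encoded by Ntrk2. Map2 and Mapt (tau) encode proteins that bind and stabilise microtubules, in dendrites and in axons respectively. Nefl encodes the neurofilament light chain, and Gap43 a membrane protein of the growth cone. Sncg encodes gamma-synuclein, a small protein of nerve terminals that is also found in some tumours, and Uchl1 a ubiquitin hydrolase abundant in neurons and neuroendocrine cells. Outside the nervous system many such genes are held off by the repressor encoded by Rest.

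The label of these genes as expressed in the cells held for some of them only. A signal was taken as measured when it exceeded a floor of 31.2, the median signal over the 2 arrays together. The lowest signal of a bioB hybridisation spike, a control added at a low amount, was 28.8. Above the floor in both arrays were 2 of the 8 genes, Penk and Map2. Bdnf and Sncg were above it in the vector clone only and Mapt in the Ndrg-1 clone only. Uchl1, Gap43 and Nefl, 3 of the 8, were under the floor in both arrays on every probe set. Of the 14 probe sets, 8 were under the floor in both arrays. In bulk RNA, fewer cells with a transcript and less transcript per cell cannot be told apart.

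**Figure D1:**
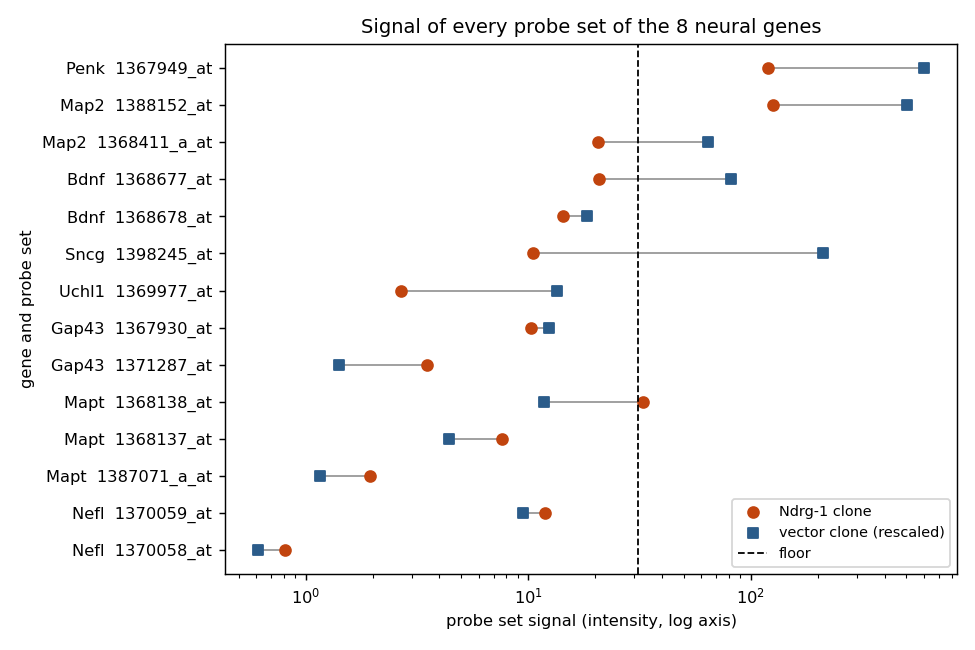
Signal of each of the 14 probe sets of the 8 genes on a log axis (intensity), with a circle for the Ndrg-1 clone, a square for the vector clone and a dashed line at the floor of 31.2. The Penk probe set and the brighter Map2 probe set lie right of the floor in both arrays, with the vector clone higher, and 8 probe sets lie left of it in both.

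The RefSeq promoter table (build GRCr8) held windows for 4 of the 8 genes, Map2, Bdnf, Sncg and Uchl1. The 250 bases before the annotated start of Sncg and of Map2 are shown because these genes were lower by 2-fold or more in the Ndrg-1 clone, relative to the floor, and had 1 window each. Sncg is the window chr16:9711337-9711586 on the minus strand and Map2 the window chr9:75346440-75346689 on the plus strand, both in build GRCr8, and capitals mark the 1 motif match found.
Sncg: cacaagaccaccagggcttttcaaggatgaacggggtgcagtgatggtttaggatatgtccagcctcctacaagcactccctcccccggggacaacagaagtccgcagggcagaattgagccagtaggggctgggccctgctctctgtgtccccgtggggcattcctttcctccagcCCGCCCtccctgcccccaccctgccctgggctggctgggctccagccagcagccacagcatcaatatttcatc
Map2: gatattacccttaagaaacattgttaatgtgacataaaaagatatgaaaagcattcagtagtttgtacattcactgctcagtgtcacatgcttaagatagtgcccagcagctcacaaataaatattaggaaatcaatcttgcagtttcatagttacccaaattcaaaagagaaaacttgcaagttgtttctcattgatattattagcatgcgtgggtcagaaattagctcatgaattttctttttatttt
The search covered both strands for TGACGTCA (the cAMP response element), TGACTCA (the AP-1 site), TATAAA (the TATA box), GGGCGG (the GC box) and CAGCACC, 1 part of the RE1 element that the Rest protein binds. The capitals in the Sncg window are a GGGCGG match read on the other strand, a motif present in 30.5% of 33469 windows of the same length. The Map2 window held no match and had a G and C content of 32.0%, against 61.6% for Sncg and a median of 51.2% over all windows. Bdnf, a gene with many start sites, had 6 windows, with a TATAAA match in 1 and GGGCGG matches in another. Its TATAAA match was read on the other strand and lay at the end of the window farthest from the annotated start. Uchl1 had a TATAAA match, also read on the other strand but near the start, and a GGGCGG match. TATAAA was present in 12.9% of all windows. Neither TATAAA match is taken as a working TATA box. TGACGTCA, TGACTCA and CAGCACC, in these exact letters, were found in 0 of the 9 windows of these genes. They were found in 1.59%, 4.05% and 5.43% of all windows. Variant forms of these sites were not searched, so a lack of the sites is not shown. Matches describe letters in these windows only.

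Among the signalling molecules, Penk was lower in the Ndrg-1 clone, at a signal of 120 against 603 in the vector clone (signals of the vector clone are given after a rescaling of 0.0048 on the log2 scale). This was 5.01-fold lower, a log2 ratio of -2.32. Both signals were well above the floor, and Penk has 1 probe set, so no second one could be set beside it. The SD of the log2 ratio between probe sets of a gene, the only error these data hold, was 0.23 over 5325 probe sets of 2291 genes, and it leaves out variation between clones, cultures and arrays. Counted from the lowest ratio, Penk stood at rank 4 of the 8546 genes above the floor in both arrays. The genes next to it in that order over the 2 arrays were Ctsh, a lysosomal protease, at -3.20 and Myh10, a non-muscle myosin heavy chain, at -2.29.

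Bdnf was above the floor in the vector clone only. Its brighter probe set read 20.9 in the Ndrg-1 clone and 82.1 in the vector clone, which is at least 2.63-fold lower. The dimmer probe set had signals of 14.4 and 18.5, both under the floor, and gives no fold. The Bdnf difference therefore rests on 1 probe set whose brighter value was not far above the floor. With the lower floor at the 25th percentile its log2 ratio was -1.97.

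Map2 was lower in the Ndrg-1 clone on both of its probe sets. The brighter had signals of 126 and 505, 3.996-fold lower, a log2 ratio of -2.00. The dimmer had 20.6 in the Ndrg-1 clone, under the floor, against 64.7 in the vector clone, at least 2.07-fold lower. The 2 probe sets went the same way. Map2 stood at rank 12 from the lowest of the 8546 genes, between Sod3, the extracellular superoxide dismutase, at -2.01 and Abcg1, a sterol exporter, at -1.94.

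Mapt, the other neuronal microtubule gene, did not share this difference. Its brightest probe set read 32.8 in the Ndrg-1 clone, just above the floor, and 11.8 in the vector clone, at least 1.05-fold higher. The other 2 probe sets had signals of 7.61 against 4.40 and of 1.95 against 1.16, under the floor in both arrays. All 3 read higher in the Ndrg-1 clone, but the 2 under the floor give no fold. With a floor at the 25th percentile of signals, 7.68, the brightest probe set was 2.78-fold higher, so whether Mapt counts as different depends on the floor.

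Sncg had the lowest bound of the 8 genes. Its 1 probe set had a signal of 213 in the vector clone and 10.5 in the Ndrg-1 clone, at least 6.81-fold lower. It ranked 2 from the lowest of 322 genes above the floor in the vector clone only. With the floor at the 25th percentile Sncg was above it in both arrays, at a log2 ratio of -4.34. With a floor at the 75th percentile of signals, 172, the same signals give a log2 ratio of -0.31 or lower, which no longer reaches 2-fold.

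The 3 genes under the floor in both arrays could not be compared. Uchl1 had signals of 2.68 in the Ndrg-1 clone and 13.5 in the vector clone. Gap43 had 10.3 against 12.4 on 1 probe set and 3.52 against 1.42 on the other, which go opposite ways. Nefl had 11.9 against 9.49 and 0.812 against 0.613. Signals this low often differ between the arrays. Of the 5044 genes under the floor in both arrays, 18.0% read 2-fold or more lower and 18.3% 2-fold or more higher in the Ndrg-1 clone.

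Of the 5 genes measured in at least 1 array, 4 were lower by 2-fold or more in the Ndrg-1 clone and 0 were higher by as much. Among all 9173 genes so measured, 138 were at least 2-fold lower (1.50%) and 149 at least 2-fold higher (1.62%). Since the genes were chosen with these ratios known, nothing is read from the difference in shares. The split of all genes depends on the scaling. Scaled to the hybridisation spikes, which moved the ratios up by 0.54, 43 genes were lower and 730 higher, while the poly-A spikes gave 240 lower and 101 higher genes. Penk, Map2, Bdnf and Sncg were at least 2-fold lower under each of these scalings, with log2 ratios of -1.78, -1.45, -1.11 and -2.48 when scaled to the hybridisation spikes. For Bdnf and Sncg these are upper bounds.

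**Figure D2:**
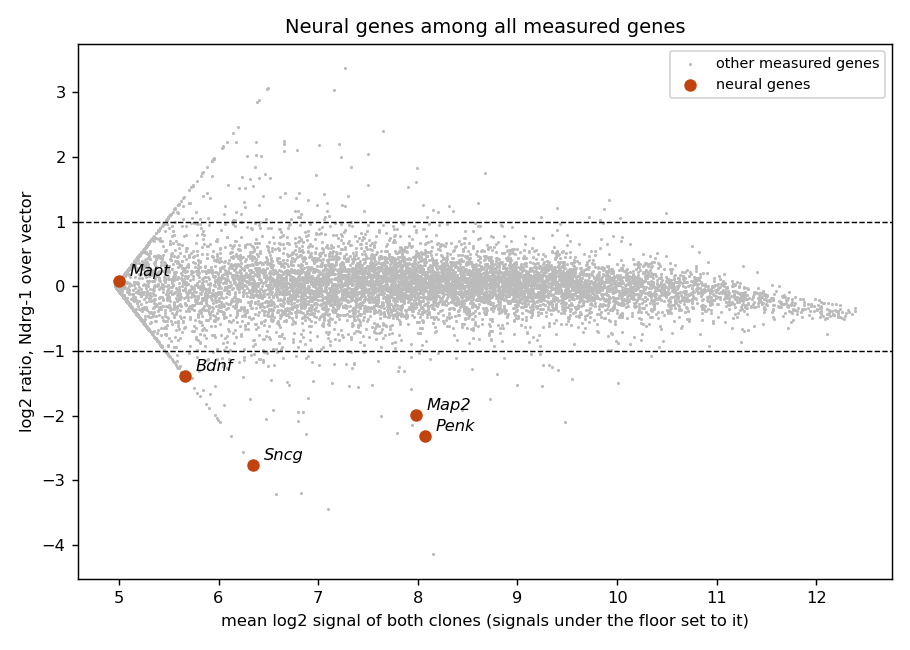
Log2 ratio of the Ndrg-1 over the vector clone (y axis) against mean log2 signal (x axis) for the 9173 genes measured in at least 1 array, with signals under the floor set to it. Dashed lines mark 2-fold. Penk and Map2 lie below the main cloud at -2.32 and -2.00, Sncg and Bdnf lie on the lower edge drawn by genes at the floor in the Ndrg-1 clone, and Mapt lies near 0.

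The check of the labels on the transfected gene was not decisive. The brighter Ndrg1 probe set had signals of 1353 in the Ndrg-1 clone and 1066 in the vector clone, a log2 ratio of 0.34, and the dimmer 154 and 182, a ratio of -0.24. Neither reached 2-fold, so directions here are those between the arrays as labelled.

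Lists of related genes, chosen with earlier results of these data known, were set beside these genes. Leaving out the 8 genes, 142 listed genes were on the array, 51 were measured in at least 1 array, 3 were at least 2-fold lower and 3 at least 2-fold higher, and the median log2 ratio was 0.01. Over all 9173 measured genes, 1.50% were at least 2-fold lower and 1.62% at least 2-fold higher, with a median of 0.0029. The share of listed genes past 2-fold was above that of all genes in both directions, with no test. Since the lists were chosen with earlier results known, nothing is read from this difference.

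In the list of neuropeptide precursors, 2 of 15 genes on the array were measured. Beside Penk this was Npy, the neuropeptide Y gene, at 32.4 in the Ndrg-1 clone against 17.9, at least 0.05 on the log2 scale. The precursors of the other opioid peptides, Pdyn, Pomc and Pnoc, were under the floor in both arrays. Among granins and prohormone-processing genes, 4 of 11 were measured and 1 reached 2-fold. Cpe, carboxypeptidase E, which trims peptides cut from prohormones such as proenkephalin, had signals of 33.7 against 107, a log2 ratio of -1.67. It has 1 probe set, and its signal in the Ndrg-1 clone was just above the floor. Pam, which amidates peptide hormones, was at -0.65, Furin, a proprotein convertase, at -0.14 and Vgf, a secreted neuropeptide precursor, at 0.11. The opioid receptor genes Oprd1, Oprm1 and Oprk1 were under the floor in both arrays. Of the enzymes listed with them, Ece1, a peptidase, was at 0.90 and Ace, the angiotensin-converting enzyme, at the floor in the Ndrg-1 clone, at -0.25 or lower.

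Among neurotrophic factors 3 of 8 were measured, and beside Bdnf these were Cntf at 0.03 and Mdk at -0.09. The receptors Ntrk2 and Ngfr were under the floor in both arrays, with signals of 14.9 against 17.7 and 7.59 against 11.4. Sort1, the sortilin receptor that binds the precursor of BDNF, was measured at 540 against 689, a log2 ratio of -0.35. Of 7 synuclein and ubiquitin hydrolase genes, 5 were measured and 1, Sncg, reached 2-fold. The synuclein gene Sncb was under the floor, at 19.5 against 13.4. The relatives of Uchl1 were measured and bright, with Uchl3 at 0.09, Uchl5 at 0.30 and Bap1 at 0.23, and the Parkinson-linked Park7 was at -0.23.

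Of 17 microtubule-associated and related genes, 13 were measured and 2 reached 2-fold, both lower. These were Map2 and Map7, which encodes a microtubule-binding protein of epithelial cells and had signals of 17.4 against 74.8, a log2 ratio of -1.26 or lower. The 2 other Map7 probe sets were under the floor in both arrays. The other large microtubule-associated proteins stayed near 0, with Map1a at 0.08, Map1b at 0.20, Map4 at -0.08 and Map6 at -0.17. Dclk1, a kinase related to doublecortin, was the highest at 0.88. Of 11 intermediate filament genes, 4 were measured and 0 reached 2-fold, from Vim (vimentin) at -0.42 to Lmnb1 at 0.16. The neurofilament genes Nefm and Nefh and the peripherin gene Prph were under the floor, as Nefl was.

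In the list around Gap43, 5 of 12 genes were measured, of which 2 were at least 2-fold higher and 0 lower. Marcksl1, a relative of the growth cone substrate MARCKS, had signals of 164 against 51.3, a log2 ratio of 1.68. Crmp1, a cytoskeletal protein of growing axons, had 72.1 against 15.3, at least 1.21 on the log2 scale. Basp1, another growth cone membrane protein, was at 0.56. Of 9 genes of the RE1 silencing complex, 7 were measured, with log2 ratios from -0.53 for Ehmt2 to 0.59 for Sin3a, and 0 reached 2-fold. Rest itself was under the floor in both arrays, at 10.8 against 24.1 on 1 probe set and 8.57 against 5.84 on the other.

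**Figure D3:**
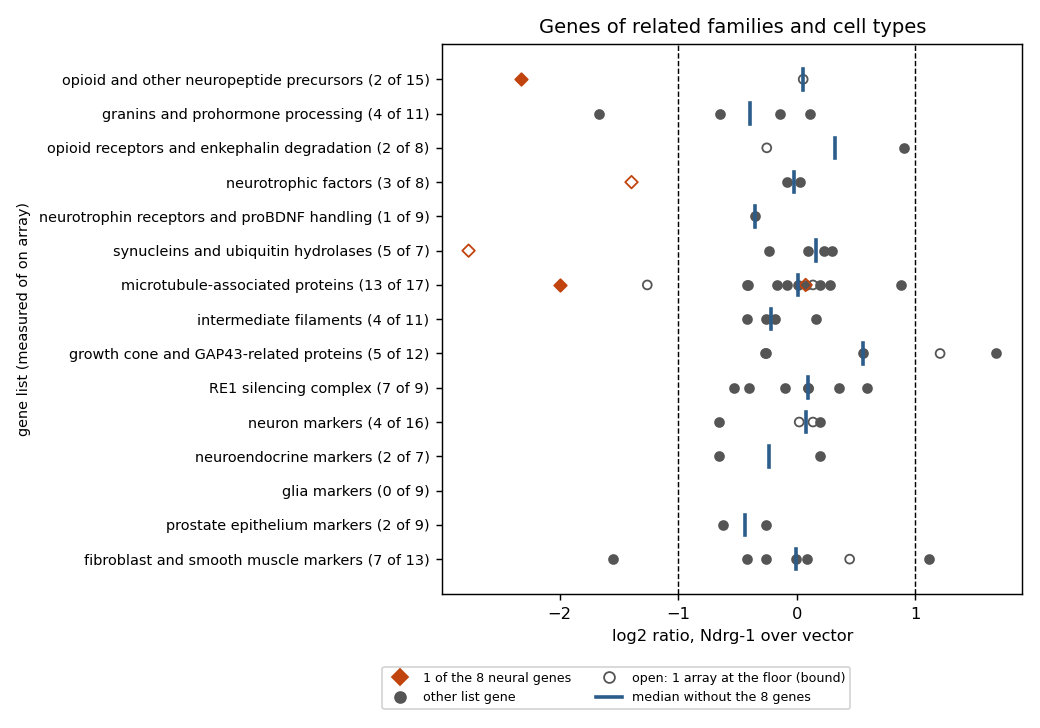
Log2 ratios (x axis) of measured genes in 15 lists of related families and cell types (rows, with the number measured of the number on the array). Diamonds are the 8 neural genes, open symbols are bounds, blue bars are list medians without the 8 genes and dashed lines mark 2-fold. Sncg, Penk, Map2 and Bdnf, chosen with their ratios known, lie left of the medians of their lists, so nothing is read from this. Without the 8 genes the median rests on 1 measured neuropeptide precursor, a bound, and on 2 measured neurotrophic factors. The other measured genes of these lists are mostly drawn within 2-fold, some of them as bounds.

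Markers of neurons and glia were mostly under the floor. Of 16 neuron markers, 4 were measured, and 0 reached 2-fold. They were Eno2, a glycolytic enzyme enriched in neurons, at 734 against 640 (0.20), the synaptic vesicle gene Syp at 45.8 against 72.3 (-0.66), and Syn1 and Tubb3, just above the floor in the Ndrg-1 clone only. Of 7 neuroendocrine markers, 2 were measured, again Eno2 and Syp, while Chga, which encodes chromogranin A, was under the floor. Of 9 glia markers 0 were measured. The summed signal over neuron markers was 961 in the Ndrg-1 clone and 851 in the vector clone, over neuroendocrine markers 851 and 735, and over glia markers 74.3 and 99.7. Eno2 made up most of the neuron and neuroendocrine sums, which also include signals under the floor. Of 9 prostate epithelium markers 2 were measured, Krt8 at 38.7 against 46.4 and the androgen-regulated Fkbp5 at -0.62, with a summed signal of 1190 and 1801, of which Fkbp5 gave 1113 and 1714. Krt5, Krt14, Krt18, Krt19, Epcam, Cdh1 and Pbsn were under the floor in both arrays. No cell origin is read from these markers. Of 13 fibroblast and smooth muscle markers 7 were measured (summed signal 7389 and 9343), with the collagen genes Col3a1 at -1.55 and Col1a1 at 1.11 past 2-fold in opposite directions. The part of other cell types in the ratios of the 8 genes was not tested.

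Neighbouring genes were set beside the members to see whether the differences extended along the chromosome. The 3 measured genes on each side of the 5 measured members, in the gene order of GRCr8, gave 30 neighbours, of which 2 reached 2-fold, against 3.13% of all measured genes, and their median log2 ratio was 0.03. The neighbours of Penk ranged from -1.50 (Nsmaf) to 0.43 (Lyn), and those of Sncg from -1.21 (Fam25a) to 0.29 (Ccser2). Between Penk and Nsmaf lay Bpnt2 at -0.15 and Sdcbp at -0.35. All 6 neighbours of Map2 were below 0, from -0.61 to -0.07, with a median of -0.44, and most of these turn above 0 when scaled to the hybridisation spikes. Bdnf had neighbours between -0.28 and 0.52, and the 6 neighbours of Mapt had ratios from 0.08 (Gosr2) upward, with Kansl1 at 0.31 and Itgb3, at the floor in the vector clone, at 0.31 or more. The lowest of these turn below 0 when scaled to the poly-A spikes.

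**Figure D4:**
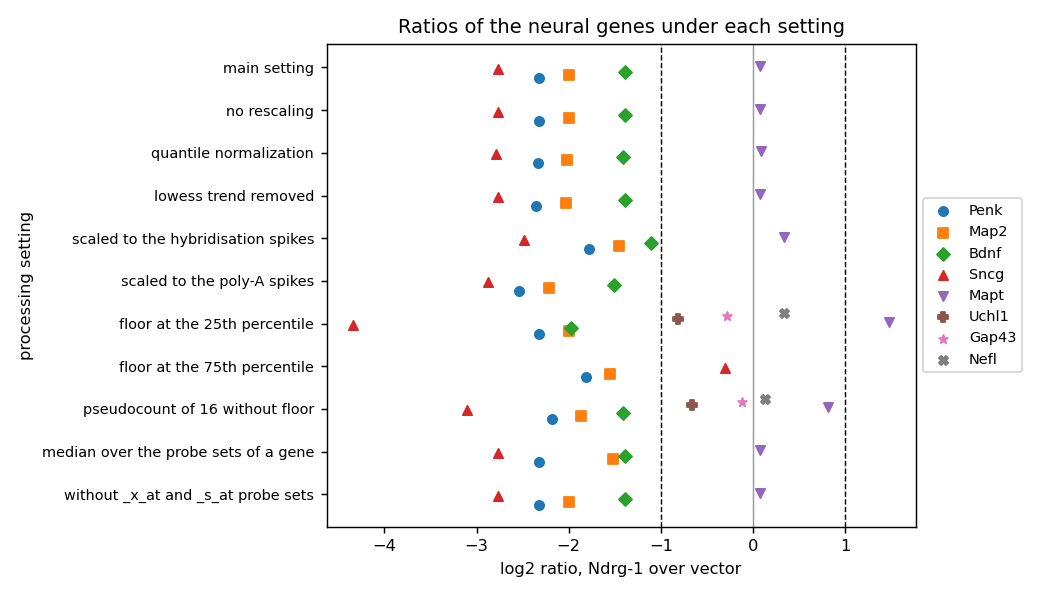
Log2 ratio (x axis) of the 8 genes under the main setting and 10 alternatives (rows), with dashed lines at 2-fold. A gene is drawn only in the rows where it has a value. Uchl1, Gap43 and Nefl are drawn only with the floor at the 25th percentile and with a pseudocount of 16 in place of a floor. Bounds have the same symbols as measured ratios. Penk and Map2 stay left of the lower line in every row, Sncg crosses it with the floor at the 75th percentile, and Mapt passes the upper line with the floor at the 25th percentile.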

How the data were processed

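Total RNA of 2 samples was hybridised to 1 Affymetrix rat array each. The deposited table gives each probe set a linear intensity, here called its signal. GCOS 1.3 is the software named, per the submitters' processing notes. How probes were summarised and scaled is not given in the sources used here. The mean intensity without the lowest and highest 2% of the 31099 deposited values was 150.0 in both arrays, so these had been scaled to a common level. Here the vector clone was multiplied by 1 factor to bring the median log2 ratio to 0 over probe sets brighter than the overall median. Signals under the median of all signals were then set to that floor, and log2 was taken. Where only 1 of the signals exceeded the floor, the ratio is a bound. The probe set of highest mean log2 signal stood for its gene.

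Genes were named from the platform annotation, and 20758 of 20826 single-symbol probe sets matched RefSeq (GRCr8) by gene ID. The 57 control probe sets were set apart from gene counts. All probe sets of the 8 genes are reported. From each list the genes past 2-fold are named, or the highest and lowest where none passed, and some further members were named after their values were seen. The 8 genes, the lists and the settings were chosen with earlier results of these data known. The neighbour comparison and the motifs were chosen after the values were seen. The number of arrays, 1 per group, limits the precision. The procedure was tested on simulated data with changes placed only in genes well above the floor, so that test does not cover genes at or near the floor. Python 3.11.15, numpy 2.4.6, pandas 2.3.3, statsmodels 0.14.6 and matplotlib 3.10.9 were used.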

Additional observations from a re-analysis of the deposited data

How the results depend on the processing

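Penk and Map2 were at least 2-fold lower under all 10 alternatives, with log2 ratios from -2.54 to -1.78 and from -2.21 to -1.45. Bdnf was so under the 9 in which it was measured, and Sncg under 9 of 10. Raising the floor to the 75th percentile left 3 of the 8 genes measured, of which 2 were at least 2-fold lower. After lowering it to the 25th 1 gene, Mapt, was at least 2-fold higher. Over all genes, 463 of 12278 measured were lower and 444 higher with the floor at the 25th percentile. With the floor at the 75th, 33 of 5741 measured were lower and 23 higher. Scaled to the hybridisation spikes 43 were lower and 730 higher, while the poly-A spikes gave 240 lower. The cause of the disagreement between the spike sets was not tested. Of 47 values of single genes under the alternatives, 14 moved by more than the SD between probe sets, and 0 turned direction from 2-fold or more. Mapt was under the floor when scaled to the poly-A spikes. Lowering the floor to the 25th percentile gave Gap43 a ratio of -0.28, Nefl 0.33 and Uchl1, still at the floor in the Ndrg-1 clone, -0.81 or lower. No paired analysis was possible because each group holds 1 array. Leaving out an array was not possible for the same reason. The limit for most of these genes is signal over background.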

Other observations

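Some further neural genes under the floor in both arrays, chosen after their values were seen, had signals more than 2-fold apart. The neurofilament gene Nefm was at 1.28 in the Ndrg-1 clone and 13.8 in the vector clone, and the synaptotagmin gene Syt1 at 12.1 and 27.2. The adhesion molecule gene Ncam1 was at 29.6 and 4.92 on the brightest of its 3 probe sets. The RNA-binding protein gene Elavl3 was at 23.5 and 5.23 on the brighter of its 2 probe sets. The transcription factor gene Neurod1 was at 10.7 and 1.06. The differences of these genes go in both directions, and 18.0% of genes at this level were 2-fold or more lower and 18.3% higher.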
